A study of Mus musculus with 10 samples.

Results

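Mup2, Mup3, Mup9, Mup20, and Mup21 are 5 of 22 major urinary protein (Mup) genes with a row of their own among the 21939 genes measured in mouse hepatocytes with and without the transcription factors Nrf2 and p65. Their rows were found through the Ensembl identifiers ENSMUSG00000078688 (Mup2), ENSMUSG00000066154 (Mup3), ENSMUSG00000078686 (Mup9), ENSMUSG00000078672 (Mup20), and ENSMUSG00000066153 (Mup21), and all 5 were among the 13641 genes tested. The genes had been chosen by their counts in these same genotypes (the single-knockout, DKO, and interaction differences), so their own differences are given as a description with no p-value, and p-values are given for the other 17 Mup genes and for gene lists. Poly-A RNA of freshly isolated hepatocytes was sequenced from 10 male mice, 1 library per mouse, 12 days after injection with AAV8Cre, a viral vector in which the hepatocyte-specific thyroxine-binding globulin promoter drives Cre recombinase. The mice were 8 to 9 weeks old, read here as the age at injection from the age given for mice of another experiment at the same time after injection. The 3 control mice were wild-type C57BL/6J and also received AAV8Cre. The 2 Nrf2 KO mice carried floxed Nrf2 alleles, the 2 p65 KO mice floxed p65 alleles, and the 3 DKO mice floxed alleles of both genes, on the same background. The control mice carried no floxed allele, so an effect of the floxed alleles and an effect of their deletion cannot be told apart.

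Major urinary proteins are small lipocalins that male mice secrete from the liver into blood and urine, where they bind and slowly release pheromones. The genes lie in 1 cluster and arose by repeated duplication, so a central group of copies is almost identical, whereas peripheral genes such as Mup3, Mup20, and Mup21 have diverged. The product of Mup20 is known as darcin, the male pheromone that attracts females. Growth hormone, secreted in pulses in males, acts through its receptor and the transcription factor STAT5b to maintain the male level of these mRNAs in hepatocytes.

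The sequences differ in how well a read can tell the genes apart. In the coding sequence, Mup2 and Mup9 differed at 2 of 540 aligned bases (99.63% identity), whereas Mup2 shared 91.3% of aligned bases with Mup20, 85.7% with Mup3, and 84.6% with Mup21. Mup3 and Mup21 were closer to each other, with 96.3% identity. The ungapped stretch of 90 coding bases with the most differences from Mup9, in exon 2, is printed for all 5 genes to show this, from GRCm39 and read on the minus strand, with capitals where the base differs. Mup2 had no capital in this stretch, Mup20 had 13, and Mup3 and Mup21 had 26 each.
Mup9 at chr4:60377356-60377445: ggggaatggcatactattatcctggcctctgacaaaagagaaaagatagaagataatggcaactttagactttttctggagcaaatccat
Mup2 at chr4:60139257-60139346: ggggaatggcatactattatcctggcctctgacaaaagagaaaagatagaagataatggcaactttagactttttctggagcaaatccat
Mup20 at chr4:61971755-61971844: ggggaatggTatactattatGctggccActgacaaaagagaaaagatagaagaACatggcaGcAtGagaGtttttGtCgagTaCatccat
Mup3 at chr4:62005075-62005164: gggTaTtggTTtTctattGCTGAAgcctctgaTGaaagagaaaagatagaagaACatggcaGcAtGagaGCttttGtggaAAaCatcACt
Mup21 at chr4:62068470-62068559: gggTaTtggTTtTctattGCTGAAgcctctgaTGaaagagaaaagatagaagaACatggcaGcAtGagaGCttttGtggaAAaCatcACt

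Reads were 100 bases long, so 1 transcript per gene (the lowest-numbered in the consensus coding set) was cut into all its 100-base stretches, and each stretch was looked for in the annotated transcripts of all other genes. Of the stretches of Mup2, 97.4% were found in another gene, most often in Mup14 (68.7%) and Mup15 (67.1%). For Mup9 the share was also 97.4%, with 87.3% found in Mup19. For Mup3 it was 2.96%, all of it in Mup21, and for Mup21 3.39%, all of it in Mup3. No stretch of Mup20 was found in another of the 22 Mup genes, but 70.3% were found in a long noncoding RNA gene, Gm70526, and 38.8% in the pseudogene Mup-ps19, neither of which is among the rows used here. Genes were then grouped where the single transcripts chosen for any pair had at least 50% of the stretches of the shorter one in common. By this rule, which leaves out the other transcripts of each gene, Mup2 and Mup9 fell into a group of 15 near-identical genes with Mup1, Mup7, Mup8, Mup10, Mup11, Mup12, Mup13, Mup14, Mup15, Mup16, Mup18, Mup19, and Mup22, while Mup3, Mup20, and Mup21 each stood alone. Mup17 was outside the group by this rule, although 56.4% of the stretches of Mup9 were found in one or other of its transcripts. The count of a single near-identical gene is therefore an estimate by the quantification software of how shared reads divide, and is uncertain.

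All 5 genes are on the minus strand of chromosome 4. In GENCODE M39 on GRCm39, Mup2 extends from 60135925 to 60154325, Mup9 from 60374041 to 60377954, Mup3 from 61947447 to 62005620, Mup20 from 61968464 to 61972395, and Mup21 from 62066056 to 62069175. The gene model of Mup3 thus spans that of Mup20 on the same strand. RefSeq promoter windows were found for 4 of the 5 genes, and the 90 bases up to the end of the TATATAA motif (capitals, searched on both strands) are printed from GRCm38.p6 because they show the same division of the genes upstream of the coding sequence. In front of the motif, Mup2 and Mup9 have unbroken runs of 45 and 44 bases that are only A or C, where the longest such run is 8 bases in Mup3 and 7 in Mup21.
Mup2 at chr4:60139877-60139966, minus strand: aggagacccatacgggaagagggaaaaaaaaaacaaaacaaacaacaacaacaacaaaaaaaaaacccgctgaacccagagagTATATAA
Mup9 at chr4:60421977-60422066, minus strand: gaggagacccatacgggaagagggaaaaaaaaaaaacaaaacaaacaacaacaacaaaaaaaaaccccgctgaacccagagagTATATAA
Mup3 at chr4:62087322-62087411, minus strand: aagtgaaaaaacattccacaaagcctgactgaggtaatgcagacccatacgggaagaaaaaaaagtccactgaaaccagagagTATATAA
Mup21 at chr4:62150843-62150932, minus strand: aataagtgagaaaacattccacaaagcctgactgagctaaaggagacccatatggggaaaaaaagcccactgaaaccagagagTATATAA

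The motif was present in 13 of the 14 Mup promoters in the RefSeq table, and in 3.24% of all 32851 promoters of the same length. Other motifs were searched by their letters on both strands. TTCNNNGAA, the palindrome that STAT factors bind, was in none of the 14 Mup windows and in 8.298% of all promoters. GGGANTTTC, a form of the NF-κB motif, was in none of the 14 and in 1.11% of all. TGACNNNGC, the core of the antioxidant response element to which Nrf2 binds, was in 1 of the 14, that of Mup21, and in 12.4% of all. Sequence outside these windows was not searched.

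The total estimated count per library was between 36170874 and 42518454 in control, 37483082 and 49897382 in Nrf2 KO, 33707165 and 36267805 in p65 KO, and between 35357766 and 40103546 in DKO. Normalized counts are estimated counts divided by the effective library size relative to its mean. The summed count of the 22 Mup genes made up 7.16% to 9.28% of all counts in the control libraries, 5.22% and 6.63% in Nrf2 KO, 4.08% and 5.02% in p65 KO, and 10.04% to 16.6% in DKO. Nfe2l2, the gene for Nrf2, had 1990 to 2318 normalized counts in control, 4739 and 5005 in Nrf2 KO, 1993 and 1997 in p65 KO, and 3434 to 5240 in DKO, so that its total was higher, not lower, where the label names a deletion (Nrf2 KO by 1.21 ± 0.156 on the log2 scale with edgeR's adjusted p = 0.00488, DKO by 1.02 ± 0.143 with edgeR's adjusted p = 0.00347). Without Nrf2 KO replicate 2 the first of these had an adjusted p of 0.0804, and without control replicate 2, control replicate 3, or DKO replicate 3 the second was below a log2 fold change of 1. Rela, the gene for p65, had 1221 to 1276 normalized counts in control, 1183 and 1209 in p65 KO, and 1034 to 1488 in DKO. A total over all exons does not check a deleted exon, and the genotype names are those of the labels.

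The libraries held hepatocyte RNA, with 2472214 to 4159525 normalized counts of Alb, the gene for albumin, in each. Markers of other liver cells were low but not equal between genotypes. The summed level of 10 Kupffer cell markers, of which Cd5l was the most abundant, was 347 to 904 normalized counts in control, 765 and 243 in Nrf2 KO, 5841 and 4313 in p65 KO, and 1574 to 2779 in DKO. All 10 were called higher in p65 KO than in control (6 without p65 KO replicate 1) and 5 in DKO (none by edgeR without control replicate 1 or DKO replicate 1, 1 without control replicate 3, 3 without control replicate 2 or DKO replicate 2). Of 6 stellate cell markers 4 were higher in p65 KO, with sums of 142 to 335 in control, 1539 and 1562 in p65 KO, and 257 to 699 in DKO, and of 6 sinusoidal endothelial markers all 6 were higher, with sums of 525 to 1081 in control, 3509 and 2523 in p65 KO, and 1310 to 1847 in DKO. The stellate count was 2 without control replicate 1, control replicate 2 (where Col3a1 was called as well), or p65 KO replicate 2, and also with the replicate block. The endothelial count was 1 (Lyve1) without p65 KO replicate 1. T and NK cell markers summed to at most 18.9 normalized counts, B cell markers to at most 9.1, and neutrophil markers to at most 50.8. Of the erythroid markers Alas2 was the most abundant, with 3039 to 4623 normalized counts in control and the single knockouts and 4463 to 4567 in DKO. The 4 globin genes among them summed to 51.9 to 182 in control, 144 and 106 in Nrf2 KO, 94.5 and 35.9 in p65 KO, and 1141, 402, and 164 in DKO. By genotype, the Kupffer, stellate, and endothelial markers were highest in p65 KO, where the Mup counts were lowest. The globin genes were above control in DKO replicates 1 and 2 and within the control range in DKO replicate 3. The summed counts of the 22 Mup genes in these 3 libraries were 7009756, 3983397, and 6502040, so the 2 did not have the same order. The part of these markers in the Mup differences was not tested. In bulk RNA, fewer cells of a type and less RNA per cell cannot be told apart.

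The levels of the 5 genes were compared per kilobase of transcript. In control hepatocytes, Mup20 had 397887 ± 112768 normalized counts per kilobase (SD, n = 3) and Mup3 381541 ± 39786, which did not differ beyond their spread. Mup9 had 26599.8 ± 9019 per kilobase, Mup2 14001 ± 4357, and Mup21 5299.8 ± 810.4, so that the divergent genes held both ends of the range. In Nrf2 KO the order began with Mup3 (404015 ± 47986 per kilobase, n = 2) and Mup20 (147085 ± 35460), and in p65 KO it began in the same way (241049 ± 8707 and 122486 ± 27760.5). In DKO, Mup3 had 396537 ± 49242 per kilobase (n = 3), Mup20 265653 ± 88510, Mup9 69690.04 ± 39869, Mup2 25102 ± 16940, and Mup21 3743 ± 3414. With the longest transcript in place of the one used here, Mup3 fell to 207978 per kilobase in control and 216153 in DKO and lay below Mup20 (366672 and 244812), so the order of these 2 genes in DKO rests on the transcript chosen.

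Mup20 was low in both single knockouts. It had 483369, 277793, and 346555 normalized counts in the 3 control libraries, 113227 and 159764 in Nrf2 KO, 95451 and 131884 in p65 KO, and 268649.9, 315335, and 155592 in DKO. All 4 single-knockout libraries lay below all 3 control libraries, whereas the DKO libraries overlapped control. The log2 fold change over control was -1.44 ± 0.328 (standard error derived from edgeR's F statistic) for Nrf2 KO, -1.70 ± 0.332 for p65 KO, and -0.58 ± 0.28 for DKO. DKO was above p65 KO by 1.12 ± 0.324 on the log2 scale, with no overlap, and above Nrf2 KO by 0.85 ± 0.32, with overlap. The interaction subtracts the log2 fold change of Nrf2 KO over control from that of DKO over p65 KO, and is 0 where both deletions add up on the log2 scale. It was 2.55 ± 0.461. Leaving out any 1 library kept this value between 2.31 and 2.82.

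Mup3, the other abundant divergent gene, varied least. It had 398100.1, 328619, and 393868 normalized counts in control, 362311 and 428749 in Nrf2 KO, 229959.6 and 242014 in p65 KO, and 394759.8, 432809, and 337062 in DKO. The p65 KO libraries were the 2 lowest of the 10 and all the other genotypes overlapped. Against control, the log2 fold change was 0.08 ± 0.159 for Nrf2 KO, -0.66 ± 0.162 for p65 KO, and 0.06 ± 0.142 for DKO. The interaction was 0.64 ± 0.227. The difference of p65 KO was smaller when libraries were scaled to equal totals (-0.48), a scaling that moved the median of all genes by 0.178 on the log2 scale in the same comparison.

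Mup21, whose coding sequence is closest to that of Mup3, had the lowest mean per kilobase of the 5 genes in control, Nrf2 KO, and DKO. In p65 KO it did not differ from Mup2 beyond their spread (2277 ± 680 and 2607 ± 982 per kilobase), and with the longest transcripts it lay above Mup2 (2264 and 2088). It had 5393, 4161, and 4199 normalized counts in control, 2209.6 and 2843 in Nrf2 KO, 2385 and 1554 in p65 KO, and 1890.3, 6624, and 1198 in DKO. The 4 single-knockout libraries again lay below all control libraries, and the DKO libraries held both the highest and the lowest value of the 10. Relative to control, Mup21 was at -0.86 ± 0.557 for Nrf2 KO, -1.22 ± 0.566 for p65 KO, and -0.50 ± 0.486 for DKO on the log2 scale. The interaction was 1.58 ± 0.787. These values rested on DKO replicate 2. Without it, the difference between DKO and control was -1.57, that between DKO and p65 KO turned from 0.72 to -0.35, that between DKO and Nrf2 KO turned from 0.36 to -0.71, and the interaction was 0.51.

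**Figure D1:**
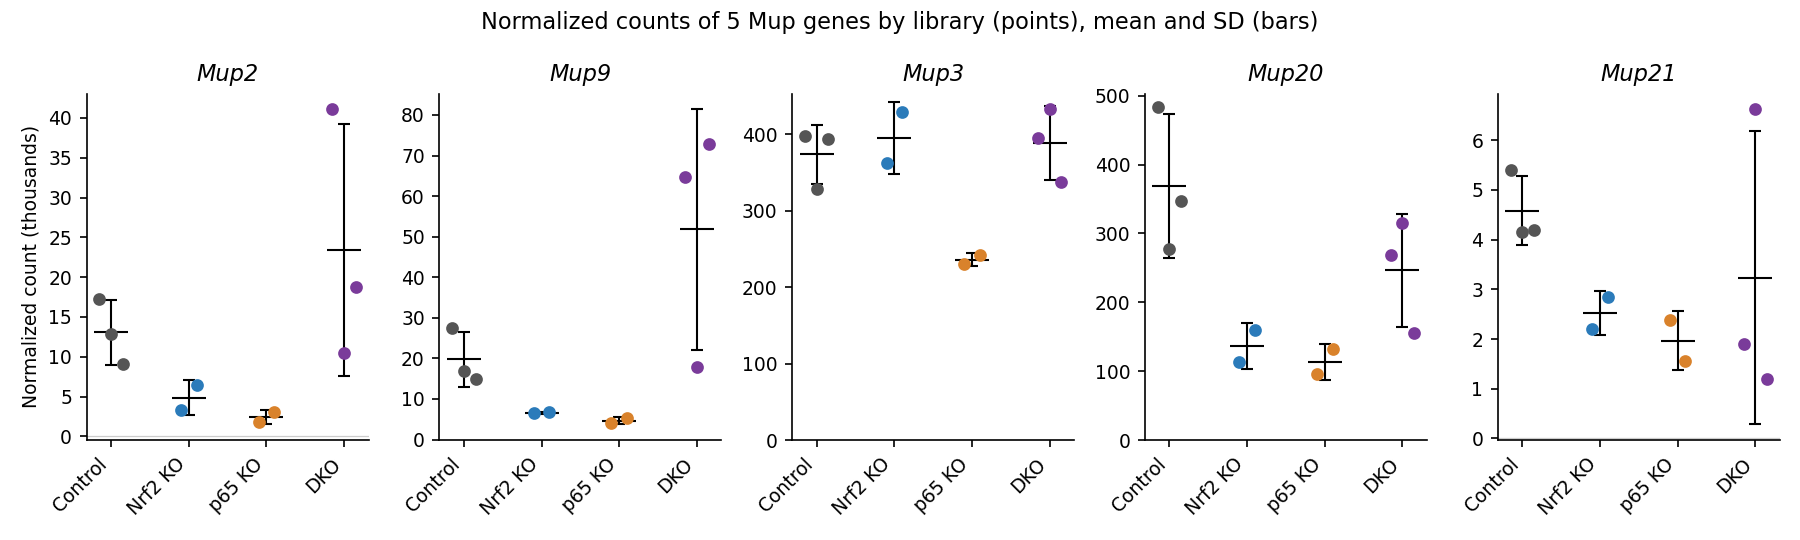
Normalized counts of the 5 genes, divided by 1000 on an axis of its own for each gene, with 1 point per library in the 4 genotypes and bars for the mean and SD. Mup20 and Mup21 lie lower in both single knockouts than in control, Mup3 is lower in p65 KO, and Mup2 and Mup9 extend in DKO from control values to 41093 and 72769 normalized counts.

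The near-identical genes Mup2 and Mup9 were low in the single knockouts and high in DKO. Mup2 had 17232, 12899.7, and 9099 normalized counts in control, 3313 and 6403 in Nrf2 KO, 1786 and 3083 in p65 KO, and 41093, 10529.5, and 18712 in DKO. Mup9 had 27414, 16942, and 14934 in control, 6439.99 and 6719 in Nrf2 KO, 4025 and 5322 in p65 KO, and 64675, 17895, and 72769 in DKO. For both genes, every single-knockout library lay below every control library and below every DKO library, while DKO overlapped control through its replicate 2. The log2 fold change against control was -1.43 ± 0.523 for Mup2 and -1.59 ± 0.486 for Mup9 in Nrf2 KO. It was -2.42 ± 0.55 and -2.08 ± 0.498 in p65 KO, and 0.84 ± 0.448 and 1.39 ± 0.418 in DKO. DKO exceeded p65 KO by 3.27 ± 0.575 for Mup2 and 3.47 ± 0.536 for Mup9, and Nrf2 KO by 2.27 ± 0.545 and 2.98 ± 0.522. The interaction was 4.70 ± 0.774 for Mup2 and 5.06 ± 0.721 for Mup9.

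Adding up the 15 near-identical genes gives a value that does not depend on how reads were divided among them, and its differences had the same signs. Mup2 and Mup9 together were a small part of it (means of 32841 of 2342159 normalized counts in control), so the sum mostly describes the other copies. For this sum, the log2 fold change over control was -0.41 ± 0.283 for Nrf2 KO, -0.96 ± 0.289 for p65 KO, and 1.13 ± 0.254 for DKO. DKO exceeded p65 KO by 2.09 ± 0.304 and Nrf2 KO by 1.54 ± 0.296, and the interaction was 2.49 ± 0.413. The sum moved less than Mup2 or Mup9 alone in 5 of the 6 values against Mup2 and in all 6 against Mup9.

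DKO replicate 2 stood apart from the other 2 DKO libraries. It was the lowest of the 3 for Mup2 and Mup9 and the highest for Mup3, Mup20, and Mup21. Without this library the difference between DKO and control was 1.19 for Mup2 and 1.80 for Mup9, and the interaction was 5.05 and 5.46. Without it the difference between DKO and control was -0.80 for Mup20 and -0.03 for Mup3, and the interaction was 2.34 and 0.55. Without DKO replicate 1 instead, the difference between DKO and control was 0.16 for Mup2 and 1.20 for Mup9, and without DKO replicate 3 it was 0.98 and 1.06. The same library had 699 normalized counts of stellate cell markers, against 271 and 257 in the other 2, and 1918 of Kupffer cell markers, against 2779 and 1574. The part of these cells in its Mup counts was not tested.

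Against the background of all genes tested, the counts of called genes were as follows, where a called gene has an adjusted p no higher than 0.05 and differs by 1 or more on the log2 scale. The contrasts chose the 5 genes, so nothing is read from these counts or from which of the 5 was called under a setting. Between Nrf2 KO and control 0.55% of genes were called (0.11% higher and 0.44% lower), and edgeR called none of the 5 genes, while DESeq2 called 1 (Mup20). Without a filter edgeR called Mup20, and with only the 2 genotypes compared it called Mup9. Between p65 KO and control 6.59% of genes were called, 5.05% higher and 1.54% lower, and Mup2, Mup9, and Mup20 were among the lower. With only the 2 genotypes compared, Mup21 was called as well. Between DKO and control 2.38% were called (1.36% higher and 1.02% lower), and edgeR called none of the 5, while DESeq2 called 1 (Mup9). Mup9 was also called by edgeR without a filter. Between DKO and p65 KO 1.78% were called, 0.968% lower and 0.814% higher, and the higher included Mup2 and Mup9. Mup20 was added to these by DESeq2 and by edgeR without a filter. Between DKO and Nrf2 KO 0.433% were called, 0.139% lower and 0.293% higher, and the higher included Mup9. The call of Mup9 was lost with the replicate block and with only the 2 genotypes compared. DESeq2, and edgeR without a filter, called Mup2 as well. The interaction was called in 0.455% of genes, below 0 in 0.191% and above 0 in 0.264%, and the last included Mup2, Mup9, and Mup20. The interaction call of Mup2 was lost with the replicate block. Without control replicate 1 or 2, only the interaction call of Mup9 was kept. The interaction call of Mup20 was also lost without control replicate 3 or DKO replicate 1. None of the 5 genes was called by edgeR for the interaction without Nrf2 KO replicate 1 or 2 or p65 KO replicate 1 or 2, in p65 KO without p65 KO replicate 1, or between DKO and p65 KO without either p65 KO library. Libraries without overlap were more common. They were lower in Nrf2 KO than in control for 13.6% of genes and for 4 of the 5, and lower in p65 KO for 23.8% and for all 5. They were higher in DKO than in p65 KO for 18.5% and for 4 of the 5, all but Mup21, and higher in DKO than in Nrf2 KO for 15.8% and for Mup2 and Mup9. The 3 comparisons with control share the same 3 control libraries.

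**Figure D2:**
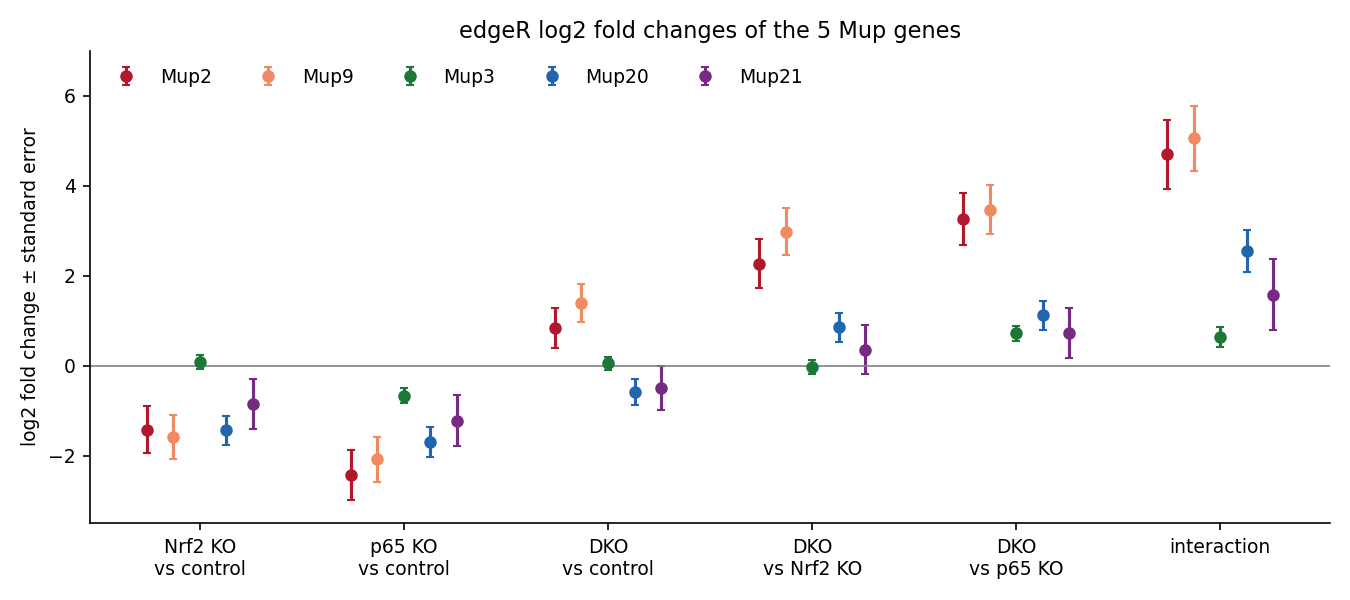
Log2 differences of the 5 genes in the 5 comparisons of genotypes and in the interaction, with bars for the standard error derived from edgeR's F statistic. All 5 genes lie below 0 in p65 KO against control, and the interaction runs from 0.64 for Mup3 to 5.06 for Mup9.

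Ratios within a library do not depend on how libraries are scaled, and they separated the divergent genes from each other. Mup20 had 1.21, 0.845, and 0.880 times the normalized count of Mup3 in control, 0.313 and 0.373 times in Nrf2 KO, 0.415 and 0.545 times in p65 KO, and 0.681, 0.729, and 0.462 times in DKO. Every knockout library thus had a lower ratio of darcin to Mup3 mRNA than every control library. Mup2 and Mup9 together had 0.0610 to 0.112 times the count of Mup3 in control, 0.0269 and 0.0306 times in Nrf2 KO, 0.0253 and 0.0347 times in p65 KO, and 0.268, 0.0657, and 0.271 times in DKO, where replicate 2 had a control-like ratio. Mup20 had 9.31 to 14.4 times the count of Mup2 and Mup9 together in control, 11.6 and 12.2 times in Nrf2 KO, 16.4 and 15.7 times in p65 KO, and 2.54, 11.1, and 1.70 times in DKO. DKO replicates 1 and 3 thus had the lowest ratios of the 10 libraries, and DKO replicate 2 lay among the control libraries. Mup21 had 0.0107 to 0.0135 times the count of Mup3 in control and between 0.00355 and 0.0153 times in the knockouts.

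**Figure D3:**
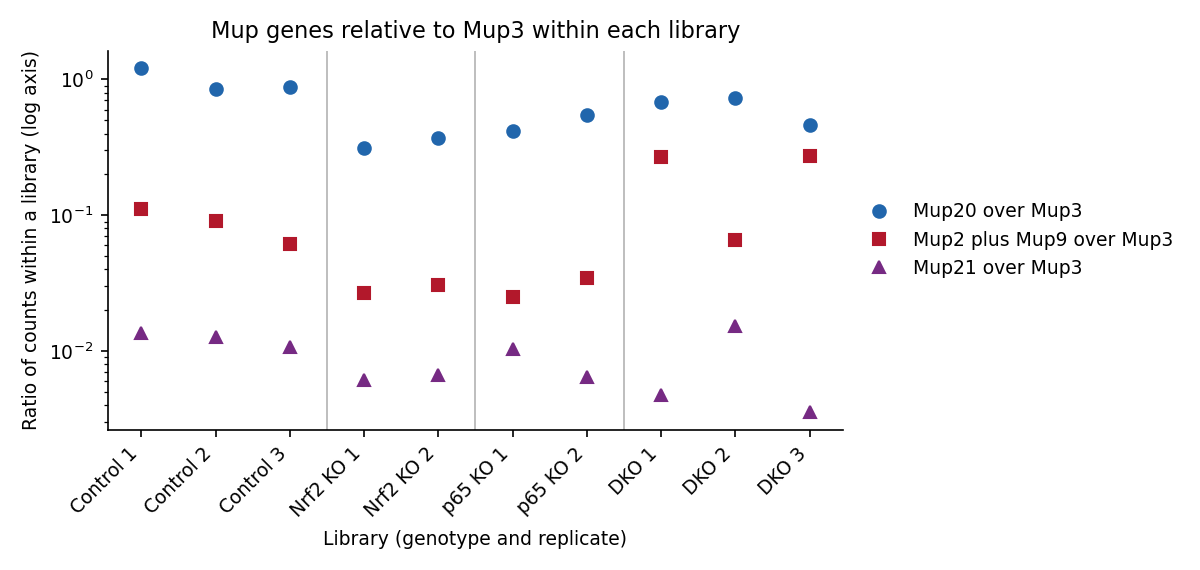
Ratios of normalized counts within each of the 10 libraries, by genotype, with 1 point per library and ratio on a log axis. The ratio of Mup20 to Mup3 is below 0.845 in all 7 knockout libraries, and the ratio of Mup2 and Mup9 to Mup3 is 0.268 and 0.271 in DKO replicates 1 and 3 but 0.0657 in replicate 2.

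The spread between libraries of a genotype differed between the genes. In DKO the coefficient of variation was 12.4% for Mup3, 33.3% for Mup20, 57.2% for Mup9, 67.5% for Mup2, and 91.2% for Mup21. In control the same genes had 10.4%, 28.3%, 33.9%, 31.1%, and 15.3%. The single knockouts had 2 libraries each, which limits the precision of their spread. Nothing in the labels gives a batch, a cage, or an isolation day, so the spread between mice and between isolations cannot be told apart.

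All of the other 17 Mup genes were tested. They are not independent of the choice of the 5 genes, because the near-identical copies among them share stretches of sequence with Mup2 and Mup9. Mup12, a near-identical copy, showed the pattern with little spread. It had 12415, 10531, and 11969 normalized counts in control, 3071 and 4075 in Nrf2 KO, 3852 and 4867 in p65 KO, and 16644, 12898, and 12745 in DKO, and in no comparison of a single knockout with control or DKO did the libraries overlap. Its log2 fold change was -1.70 in Nrf2 KO (adjusted p = 0.00149, edgeR), the only one of the 17 that edgeR called there with all libraries, and -1.42 in p65 KO (adjusted p = 0.00173). In Nrf2 KO, DESeq2 called Mup14 as well, and edgeR without DKO replicate 2 called Mup8 as well. The interaction of Mup12 was 3.40 ± 0.258 (adjusted p = 0.000357), and this call was kept without each of the 10 libraries in turn. In p65 KO, 6 of the 17 were called lower (Mup1, Mup8, Mup10, Mup11, Mup12, and Mup14) and none higher. This count was 1 (Mup12) without p65 KO replicate 1, 2 without p65 KO replicate 2 or control replicate 1, and 3 with the replicate number as a block. In DKO, Mup7 (1.51, adjusted p = 0.00375) and Mup18 (2.21, adjusted p = 0.0132) were called higher than control, although Mup18 was not called without control replicate 1 (adjusted p = 0.0626), and 7 were called without DKO replicate 2. DKO was called above p65 KO for 11 of the 17 and above Nrf2 KO for 4 (Mup1, Mup7, Mup12, and Mup14), and the interaction was called above 0 for 6. By DESeq2 9 were called in p65 KO, 7 in DKO against control, 13 in DKO against p65 KO, 10 in DKO against Nrf2 KO, and 11 for the interaction. With only the 2 genotypes compared, edgeR called 10 in p65 KO, 5 in DKO against p65 KO, and 1 in DKO against Nrf2 KO. The 11 became 2 (Mup7 and Mup12) without p65 KO replicate 1, 3 without p65 KO replicate 2, and 7 without DKO replicate 1 or with the block. The 4 became 1 (Mup12) without Nrf2 KO replicate 1 or with the block, 2 without Nrf2 KO replicate 2, and 9 without DKO replicate 2. The 6 became 1 (Mup12) without either p65 KO library, 2 without control replicate 1, either Nrf2 KO library, or with the block, 4 without DKO replicate 1, and 10 without DKO replicate 2. The median log2 difference of the 17 against control was -0.73 for Nrf2 KO, -1.42 for p65 KO, and 1.13 for DKO, and it was 2.53 for the interaction, beside medians over all genes of 0.00185, 0.000896, 0.0247, and 0.0121. The 17 genes are not independent of each other.

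**Figure D4:**
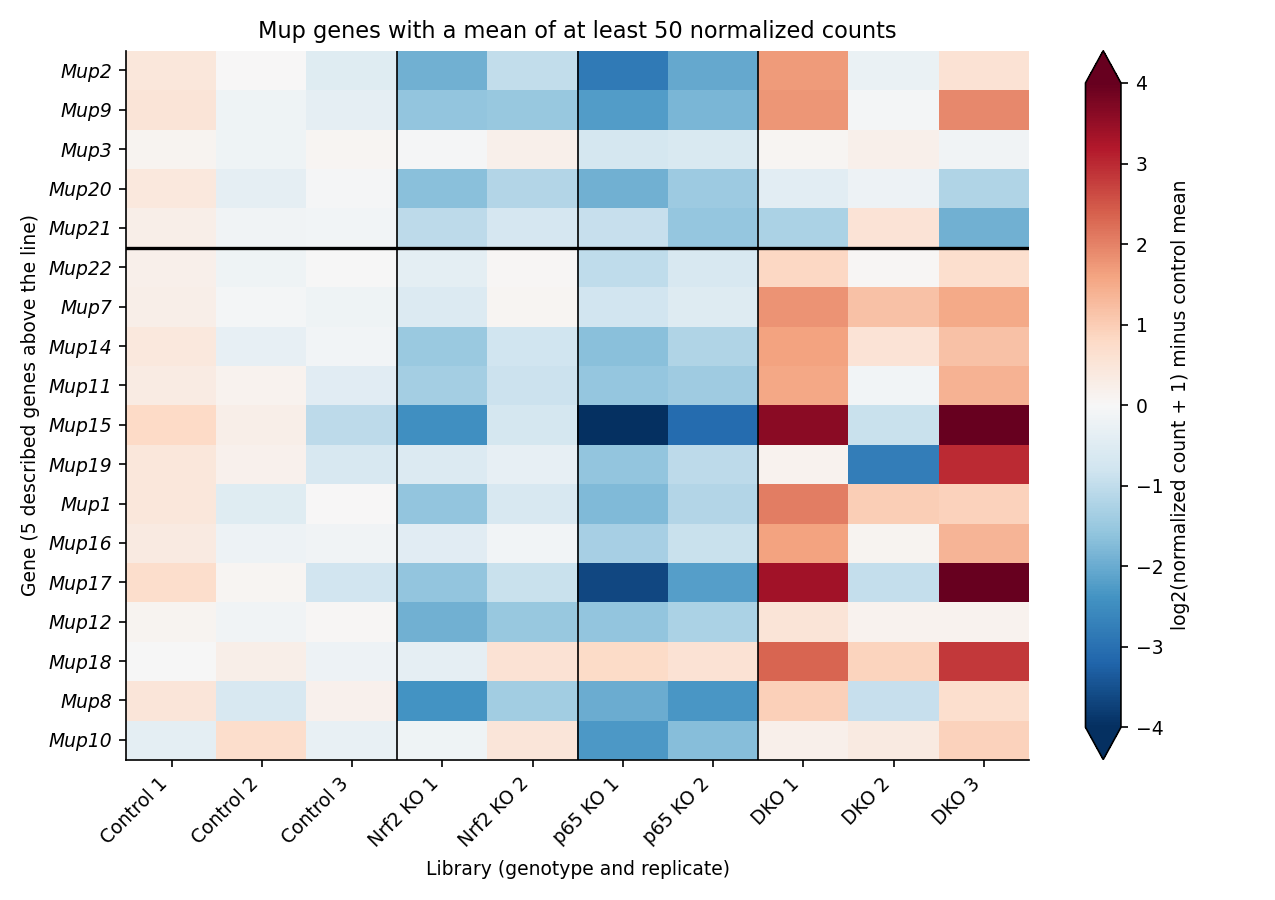
Log2(normalized count + 1) minus the control mean, as colors that saturate at 4 on either side, for the Mup genes (rows) whose mean is 50 or more normalized counts, in the 10 libraries (columns). Single-knockout libraries are lower than control for most genes, and DKO replicates 1 and 3 are higher than DKO replicate 2 for most near-identical copies.

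Added up, the 17 other genes had 2773912, 2101105, and 2072803 normalized counts in control, 1446963 and 2069567 in Nrf2 KO, 1064145 and 1338295 in p65 KO, and 6238687.5, 3200206, and 5916706.5 in DKO. The p65 KO libraries were the lowest and all DKO libraries exceeded all others. DKO was above control by 1.14 ± 0.256 on the log2 scale (adjusted p = 0.0285, edgeR) and above p65 KO by 2.09 ± 0.306 (adjusted p = 0.00868), and the interaction was 2.49 ± 0.416 (adjusted p = 0.0346). The sum was lower than control by -0.95 ± 0.291 in p65 KO (adjusted p = 0.0513) and by -0.40 ± 0.285 in Nrf2 KO (adjusted p = 0.755), neither past the threshold. The interaction call was lost without any 1 of 8 libraries, namely all but DKO replicates 2 and 3 (adjusted p = 0.0599 to 0.178), and the call between DKO and control was lost without any control library or without DKO replicate 1 or 3 (adjusted p = 0.0573 to 0.0905). Both calls were also lost with the replicate block (adjusted p = 0.109 and 0.0657), and that between DKO and control with only the 2 genotypes compared (adjusted p = 0.0556). The call between DKO and p65 KO was lost without p65 KO replicate 1 (adjusted p = 0.0781) or 2 (adjusted p = 0.0554).

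**Figure D5:**
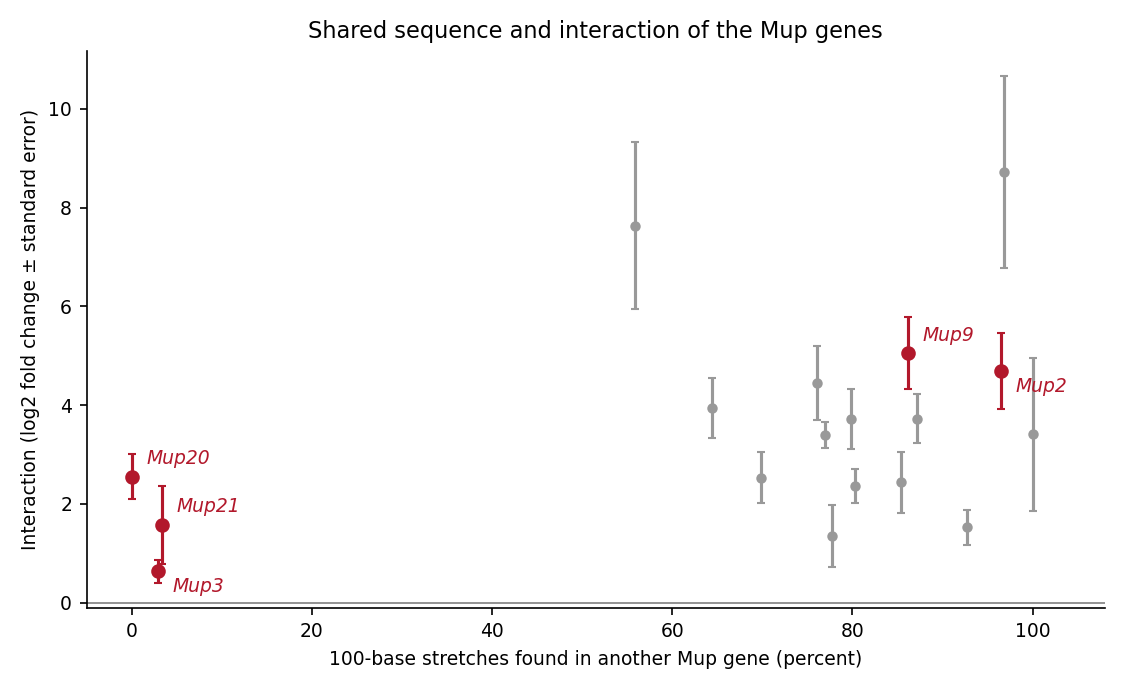
Share of 100-base stretches that each Mup gene has in common with the 1 transcript chosen for each other Mup gene (percent, horizontal axis), against the interaction on the log2 scale with its standard error (vertical axis), with 1 point per Mup gene whose mean is 50 or more normalized counts. Mup2 and Mup9 are at 96.5% and 86.2%, and Mup3, Mup20, and Mup21 are at 2.96%, 0%, and 3.39%. Over all annotated transcripts of other genes, which are not plotted, Mup2 and Mup9 are both at 97.4%.

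The genes with patterns most like each of the 5 were found by the root mean square difference of log2 counts, each centered on its mean over the 10 libraries, among 10184 genes. For Mup2 all 5 nearest genes were Mup genes, led by Mup11 (0.444) and Mup14 (0.447), and for Mup9 they were too, led again by Mup11 (0.381). These genes share stretches of sequence. For Mup20 none of the 5 nearest was a Mup gene. They were Crem (0.380), a cyclic AMP-responsive transcription factor, Hopx (0.402), Nlrp12 (0.408), Lbp (0.427), which encodes lipopolysaccharide-binding protein, and Fyb2 (0.441). For Mup21 the nearest were Wsb1 (0.313), Lbp (0.464), Phf21a (0.489), Gmds (0.494), and Cyth3 (0.494), and Mup20 ranked 40th. For Mup3, which varied little, they were Pgls (0.0856), Mrpl38 (0.106), Uqcc2 (0.111), Plcl2 (0.116), and Grcc10 (0.117). The standard deviation of log2 counts of the genes themselves was 1.31 for Mup2, 1.38 for Mup9, 0.306 for Mup3, 0.740 for Mup20, and 0.762 for Mup21, so that a small difference means more for the genes that varied more.

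Growth hormone signaling genes were examined beside the Mup genes. None of 8 listed genes, which include Ghr (the growth hormone receptor), Stat5b, and Igf1, was called by edgeR in any of the 6 comparisons, with 0 to 2 at an unadjusted p below 0.05 and 1 called by DESeq2. This was Cish, a feedback inhibitor induced by STAT5, lower in DKO than in control, which edgeR also called without control replicate 3, without either Nrf2 KO library, or without a filter. Stat5b was lower in p65 KO by a log2 fold change of -0.67 ± 0.184 (adjusted p = 0.0352), under the size required for a call. Of 12 regulators of Mup or sex-biased genes, which include Zhx2 and Rsl1, edgeR with all libraries called only Cux2, a female-biased repressor, with 32.5 and 15.1 normalized counts in p65 KO against 0 to 3.31 in control (log2 fold change 3.72, adjusted p = 0.042), and the call was lost without any 1 of 7 libraries (highest adjusted p = 0.228). DESeq2 called Cux2 in DKO against control as well.

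Of 16 other male-biased liver genes tested, Nrf2 KO had 2 called lower than control (none by edgeR without either Nrf2 KO library), p65 KO had 3 (1 without p65 KO replicate 1), and DKO had 4 lower and 1 higher. The number higher in DKO was 0 without control replicate 2, control replicate 3, or DKO replicate 1. It was 2 without DKO replicate 2 or 3, without a filter, or by DESeq2. DKO was called above p65 KO for 1 (Serpina1e, lost without p65 KO replicate 1 or 2) and below Nrf2 KO for 1 (Hsd3b5, lost without Nrf2 KO replicate 2). Above p65 KO, 3 were called by DESeq2, without a filter, or without DKO replicate 2. Hsd3b5 was called below p65 KO with equal totals or without DKO replicate 1. Against Nrf2 KO, DESeq2 called 2 higher and 2 lower, and edgeR called 1 higher without DKO replicate 2 or 3. By edgeR no interaction was called (8 at an unadjusted p below 0.05, 3 by DESeq2) except that of Hsd3b5, below 0, with equal totals. Elovl3, a fatty acid elongase, was at -3.48 in p65 KO (adjusted p = 0.00293) and -1.67 in DKO (adjusted p = 0.0386, called in only 4 of 10 fits that left out a library), and Cyp4a12a, a fatty acid hydroxylase, was at -1.33 in DKO (adjusted p = 0.012). Of 20 female-biased genes tested, Nrf2 KO had 1 called higher than control (Atp6v0d2, kept in 2 of 10 fits that left out a library), p65 KO had 5 (2 without control replicate 1, control replicate 2, or either p65 KO library), and DKO had 2 higher and 1 lower (1 and 0 with the replicate block). Between DKO and p65 KO 1 was called higher and 1 lower (neither without p65 KO replicate 1 or 2). By DESeq2, or by edgeR with equal totals, 1 was higher and 3 were lower there. Between DKO and Nrf2 KO edgeR called none (7 at an unadjusted p below 0.05, 2 by DESeq2) but called Abcd2 lower without control replicate 1, control replicate 3, or DKO replicate 1 and with equal totals, Cyp2a4 higher without DKO replicate 3, and both without a filter. For the interaction 1 was called below 0 (Atp6v0d2, kept in 4 of 10). Cyp2a4, a steroid hydroxylase, had 4.92 to 47.6 normalized counts in control, 18096 and 17985 in p65 KO (log2 fold change 9.73, adjusted p = 0.00478), and 1648, 5039, and 11.4 in DKO (6.72, adjusted p = 0.0268), and the call in DKO was lost without DKO replicate 2 or any control library. Cyp2a4, Cyp4a12a, and Orm2 have close paralogs, so their counts are also uncertain.

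Among other lipocalins, 2 of 8 tested were called higher in p65 KO, and the median of the 8 was 0.34 there. They were Orm2, which encodes an acute phase plasma protein, and Lcn2, which encodes an iron-scavenging lipocalin (1.95, adjusted p = 0.0199, and 2.67, adjusted p = 0.00361), and these 2 and Ptgds were called higher in DKO (2.45, adjusted p = 0.0115, 3.16, adjusted p = 0.00189, and 1.62, adjusted p = 0.0305). The call of Orm2 in p65 KO was kept in 6 of 10 fits that left out a library, that of Ptgds in 6, and those of Lcn2 in p65 KO and DKO and of Orm2 in DKO in all 10. Lcn2 was also called above Nrf2 KO in DKO (not without Nrf2 KO replicate 1, adjusted p = 0.108), and edgeR called no lipocalin in the other comparisons. The call of Lcn2 above Nrf2 KO and that of Ptgds in DKO were lost with the replicate block and with only the 2 genotypes compared. None of 10 genes for abundant secreted hepatocyte proteins was called by edgeR or DESeq2 in any comparison, with 1 to 6 at an unadjusted p below 0.05. Of 6 hepatocyte markers, Cyp2e1 was called lower in DKO than in p65 KO (-1.06, adjusted p = 0.0296), which was kept in 6 of 10 fits that left out a library. It was not called with only the 2 genotypes compared. The interaction of Cyp2e1 was called below 0 by DESeq2, and by edgeR with equal totals or without DKO replicate 3. Of the 3 neutrophil markers tested, Csf3r was called higher in p65 KO (3.38, adjusted p = 0.0341), but not without control replicate 1, control replicate 3, or p65 KO replicate 1 (highest adjusted p = 0.32) or with the replicate block. No T and NK cell, B cell, cholangiocyte, or erythroid marker was called by edgeR, with at most 1, 1, 1, and 5 at an unadjusted p below 0.05 in a comparison and with DESeq2 calling only erythroid markers, at most 4. Without DKO replicate 3, edgeR called Hba-a1, Hba-a2, and Hbb-bs higher in DKO than in control and than in p65 KO, and without a filter it called 2 of these (Hba-a1 and Hbb-bs) in both comparisons, as it did with equal totals between DKO and p65 KO. The median of the 5 erythroid markers was 2.06 in DKO against control, 2.96 in DKO against p65 KO, and 2.97 for the interaction, and all 5 had an unadjusted p below 0.05 in the last 2.

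The genes next to the cluster were mostly not called. Of 29 genes within 1 Mb that are not Mup genes, 25 were tested. Hsdl2 was called lower in p65 KO (-1.21, adjusted p = 0.00221), Rgs3 lower in DKO (-3.06, adjusted p = 0.0329, lost without 5 of the 10 libraries), and Susd1 lower in DKO than in p65 KO (-1.07, adjusted p = 0.0457), the last called without only 1 of the 10 libraries in turn and not with only the 2 genotypes compared. With all libraries, edgeR called none in Nrf2 KO, between DKO and Nrf2 KO, or for the interaction, where 3, 4, and 4 had an unadjusted p below 0.05 and DESeq2 called 0, 0, and 1. The 1 was Hsdl2, which edgeR also called without a filter.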

How the data were processed

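Poly-A RNA of hepatocytes from 10 mice in 4 genotypes was sequenced as stranded single-end reads of 100 bases. Per the study's methods and the submitters' processing notes, the authors quantified reads with Salmon 1.10.3 on GRCm39 with GENCODE M33 and tested with DESeq2 1.42.1. The deposited values are whole numbers, and library totals differ between 33707165 and 49897382, so they were treated as estimated counts per gene, although the table is named as normalized. Of 21939 identifiers, 21926 were found in GENCODE M39, which gave names, positions, and transcripts. Genes with a summed count of at least 10 (13641) were tested with edgeR 4.0.16 (TMM, quasi-likelihood, all 10 libraries, R 4.3.3) with Benjamini-Hochberg adjustment over all of them. A call needed an adjusted p no higher than 0.05 and a difference of 1 or more on the log2 scale, and 6 comparisons were made. Standard errors were derived as the absolute log2 fold change divided by the square root of edgeR's F statistic, which moderates the spread of a gene over all genes. Each sum over genes was tested in a fit of its own, in which 1 row with the sum replaced the rows of those genes. Figures were drawn with matplotlib 3.10.9 under Python 3.11.15. The steps were tested on simulated data.

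The 5 genes and all lists were chosen with earlier results of these data known. The text names the 5 genes, the other Mup genes, the 5 genes most like each (mean of at least 50 normalized counts, log2 with a pseudocount of 1), Ghr, Stat5b, Igf1, Zhx2, Rsl1, Nfe2l2, Rela, up to 4 called genes per list by mean count, and up to 3 called neighbors within 1 Mb. The lists were growth hormone signaling, male-biased and female-biased liver genes, regulators, other lipocalins, abundant secreted proteins, markers of 9 cell types (hepatocyte, Kupffer, T and NK, B, neutrophil, sinusoidal endothelial, stellate, cholangiocyte, erythroid), and neighbors. Levels per kilobase used 1 transcript of the consensus coding set per gene. Alternatives were DESeq2 1.42.0, its size factors, equal totals, library sizes without Mup genes, no filter, a replicate block, only the 2 genotypes compared, each library left out, the sum of near-identical copies, and the longest transcript. Replicate libraries differed by more than sampling noise (chi-square per degree of freedom 44.8 to 204.4), so all were counted, and intervals cover the spread between these mice.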

Additional observations from a re-analysis of the deposited data

Results flagged for a closer look

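The following had a called difference between the effect of DKO over p65 KO and that of Nrf2 KO over control, by edgeR's test of the interaction itself. The summed other 17 Mup genes had an interaction of 2.49 on the log2 scale (adjusted p = 0.0346), a call that was lost without any 1 of 8 of the 10 libraries (adjusted p = 0.0599 to 0.178) and with the replicate block (adjusted p = 0.109). Among single Mup genes it was 3.94 for Mup1, 2.37 for Mup7, 4.46 for Mup8, 3.72 for Mup11, 3.40 for Mup12, and 3.73 for Mup14. Of these, the call of Mup12 was kept without each of the 10 libraries in turn, and the others were kept in 5 (Mup1), 6 (Mup7), 3 (Mup8), 3 (Mup11), and 7 (Mup14) of the 10. With the replicate block, the calls of Mup1, Mup7, Mup8, and Mup11 were lost. The copies share stretches of sequence, so these are not separate results.

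Outside the family, the interaction was 1.41 for Hopx and 1.84 for Nlrp12, which were among the genes most like Mup20, and -3.92 for Atp6v0d2, a female-biased gene for a proton pump subunit. These calls were kept in 2, 3, and 4 of the 10 fits that left out a library. The call of Hopx was also lost with equal totals, and that of Nlrp12 with the replicate block. Hopx and Nlrp12 were found by their likeness to Mup20 in the same libraries, so their interactions are not independent of its own.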

How the results depend on the processing

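Of 517 values of the 5 genes under an alternative, 500 moved by less than their spread, 17 moved by more, and none that had been called changed sign. DESeq2 called 135 genes between Nrf2 KO and control, 534 between DKO and control, 453 between DKO and p65 KO, 296 between DKO and Nrf2 KO, and 249 for the interaction, against 75, 325, 243, 59, and 62 by edgeR. Equal totals gave 504 (86 higher, 418 lower) between DKO and p65 KO, where TMM gave 111 higher and 132 lower, 118 (27 and 91) for the interaction against 36 and 26, and 153 higher and 177 lower between DKO and control against 186 and 139, and it moved the median of all genes by -0.27 and -0.26 in the first 2. Without a filter 112 genes were called between DKO and Nrf2 KO and 137 for the interaction. With only the 2 genotypes compared, 124 were called between DKO and p65 KO and 32 between DKO and Nrf2 KO. Leaving out 1 library gave 18 to 84 genes between Nrf2 KO and control, 330 to 952 between p65 KO and control, 146 to 315 between DKO and control, 72 to 299 between DKO and p65 KO, 19 to 81 between DKO and Nrf2 KO, and 8 to 119 for the interaction. The cause was not tested.

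The summed other Mup genes had log2 differences of -0.68 to -0.16 (Nrf2 KO against control), -1.12 to -0.79 (p65 KO against control), 0.98 to 1.39 (DKO against control), 1.93 to 2.34 (DKO against p65 KO), 1.31 to 1.82 (DKO against Nrf2 KO), and 2.25 to 2.77 (interaction) when 1 library was left out. DKO against control was 1.14 and not called with only the 2 genotypes (adjusted p = 0.0556). DKO against Nrf2 KO, not called by edgeR (1.54, adjusted p = 0.056), was called by DESeq2 (1.55), with equal totals (1.44), and without a filter (1.54). Replicate numbers did not pair the libraries: the correlation of deviations over same-number pairs was -0.232 to 0.113, over 0.1 in 1 of 13 pairs. With the replicate block 37 genes were called between DKO and Nrf2 KO, the sum was 1.13 between DKO and control and 2.41 for the interaction, neither called, and the calls of Mup9 between DKO and Nrf2 KO and of Mup2 for the interaction were lost. With 2 libraries in each single knockout, leaving 1 out assumes that the lone library varies like the others.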
